A study of Tigriopus californicus with 9 samples.

Results

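Hybrids of the splash-pool copepod Tigriopus californicus that descended from San Diego mothers were set against Santa Cruz animals, the population of their fathers. The comparison used 4 of the 9 libraries of the series, chosen by title: SDf x SCNm replicates 1 and 2, and SCN replicates 1 and 2. SDf x SCNm libraries came from hybrids of hybrid generation 3, descended from virgin San Diego (SD) females and Santa Cruz (SCN) males through 2 further rounds of mating among hybrids. SCN libraries came from animals of the Santa Cruz stock. The other 5 libraries (SD, n = 3; the reciprocal hybrid SCNf x SDm, n = 2) helped to estimate the spread, and their levels are given beside those of SDf x SCNm where a result calls for them. All animals were kept at 20 °C, and each library was made from polyA RNA of 400 to 500 whole animals of all developmental stages pooled together after 2 h in a water bath at that temperature. The labels do not say whether replicates were cultured apart. The p-values therefore reflect the spread between these libraries alone, which may be technical.

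Mitochondria are inherited from the mother, so SDf x SCNm animals carried SD mitochondrial DNA, whereas their nuclear genes came from both populations. The respiratory complexes I, III, IV and V are built from subunits of both genomes, and mitochondrial ribosomes join rRNA from mitochondrial DNA with proteins encoded in the nucleus. Crosses between populations of this copepod are a textbook case for the study of how divergent mitochondrial and nuclear genomes work together. A hybrid that is compared with its paternal population differs from it in mitochondrial type and in the SD share of its nuclear genome at once, and the effects of these cannot be told apart here.

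Values are given in RPKM, a read count scaled by contig length and library size. Each of 13758 features is an SD contig paired with its SCN contig, or 1 of 13 mitochondrial genes, and 8917 carry an informative protein name. The SCN libraries held 3.29 M and 1.31 M recovered reads (replicate 1, then 2). Those of the hybrids held 4.21 M and 12.7 M, in the same order. No run held libraries of both groups (SCN in runs 1 and 3, SDf x SCNm in runs 4 and 5), so run and group cannot be told apart. SD libraries were in runs 1, 2 and 3, and both SCNf x SDm libraries in run 5. Hybrids of either cross therefore shared no run with either parental population. Where hybrids lay beyond both parents, run and hybrid origin cannot be told apart either. Neither pair of replicates was a library deposited again, since chi-square per feature came to 48.3 in SCN and 39.2 in SDf x SCNm.

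The SCN libraries stood far apart from each other. They differed by a factor of 2 or more in 6442 features (46.8%), against 1290 features (9.38%) between the SDf x SCNm libraries. Across features, the SCN libraries correlated at Pearson r = 0.828 and the SDf x SCNm libraries at 0.940. SDf x SCNm replicates 1 and 2 correlated with SCN replicate 1 at 0.912 and 0.924, and with SCN replicate 2 at 0.857 and 0.816. These correlations run across features that share libraries, and features are not replicates. SCN replicate 2 was the shallower library, with 8.07% of features at 0 reads against 0.273% in SCN replicate 1. Its median RPKM was 16.3, against 24.4 in SCN replicate 1 and 25.9 and 26.7 in the hybrids. The role of depth in the gap between the SCN libraries was not tested.

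Because of that gap, the hybrid mean was also set against each SCN library alone, with no test. A difference of 1 or more on the log2(RPKM + 1) scale, a factor of 2, counted as past the fold. Against SCN replicate 1, 894 features were past the fold higher in SDf x SCNm (6.5%) and 398 lower (2.89%). Against SCN replicate 2, 4852 were higher (35.3%) and 1104 lower (8.02%). The median difference over all features was 0.02 against replicate 1 and 0.59 against replicate 2. In the fit it was 0.30, and it moved to -0.021 under quantile normalization and to 0.0048 under median-of-ratios scaling. Past the fold in the same direction against both were 444 features higher (3.23%) and 84 lower (0.611%), of which 174 and 37 had informative names. Both libraries of the reciprocal cross SCNf x SDm lay on the same side of both SCN libraries in 425 of the 444 (95.7%) and 82 of the 84 (97.6%). Most of these differences thus had the same direction in both crosses. The features were chosen by their distance from the same SCN libraries, which by itself favours such agreement. The matching share over all features is not given here. Both SCNf x SDm libraries also shared a run with SDf x SCNm replicate 2. Another 40 features were higher than replicate 1 and lower than replicate 2, and 80 were the other way round. Of the features past the fold higher against both for which reads were recovered (433), 191 had at most 3 reads in SCN replicate 2, a share of 44.1% against 22.4% of all features, and 50 had at most 3 reads in both SCN libraries.

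**Figure D1:**
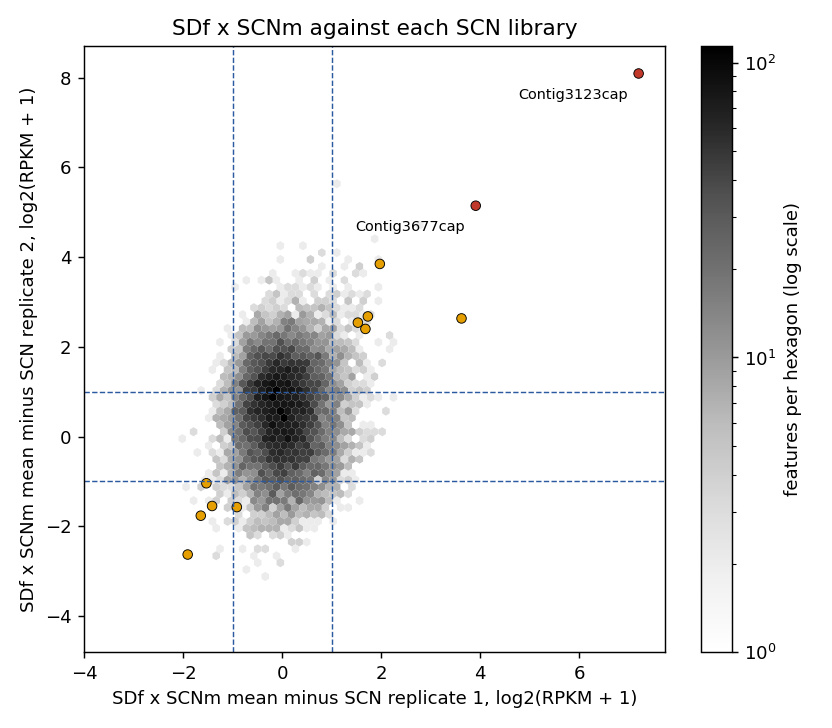
Difference of the SDf x SCNm mean from SCN replicate 1 (x axis) and from SCN replicate 2 (y axis), in log2(RPKM + 1) units, over 13758 features. Hexagons are shaded by the number of features on a log scale, dashed lines mark a factor of 2, red points are the 2 features past the threshold and orange points the 10 named features with the smallest p. The cloud is centred near 0 on the x axis and at 0.59 on the y axis, and it is taller than it is wide.

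The test of the SDf x SCNm mean against the SCN mean used limma across all 9 libraries, with p-values adjusted over all features and a threshold of 0.05. It called 2 features higher in the hybrids (0.0145% of features) and 0 lower (0.0%). At an unadjusted p below 0.05 there were 1117 higher and 175 lower features. With voom, a limma method for reads, applied to the recovered reads, 0 features were called lower and 266 had an unadjusted p below 0.05 in that direction. The counts moved with single libraries. Without SCN replicate 1 the fit called 2274 features higher and 385 lower, with the lone SCN library assumed to vary like the other groups, and without SCN replicate 2 it called 0 in either direction. Without SDf x SCNm replicate 1 it also called 0. It called 1 higher and 0 lower without SDf x SCNm replicate 2, SD replicate 1, SD replicate 3 or either SCNf x SDm library. An exact permutation test of 2 libraries against 2 could not fall below p = 0.333 for any single feature.

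Both called features were contigs with no protein name, and both held at most 4 recovered reads in each SCN library. The sources used here do not say which population's contigs served as the reference, so a transcript scarce in Santa Cruz animals and one whose reads were not placed on the contig cannot be told apart. Contig3123cap stood at 12.8 and 6.45 RPKM in SCN replicates 1 and 2, and at 2894 and 1427 RPKM in SDf x SCNm replicates 1 and 2. The groups lay far apart, and the low SCN values held 2 and 0 recovered reads, the rest being a constant that the deposited values carry. The fitted difference was 7.65 on the log2 scale (SE 0.64, limma adjusted p = 0.00352), and the hybrid mean was higher than each SCN library by 7.20 and 8.09. In reads scaled by depth, summed over the libraries of a group, the ratio was 589 (exact 95% interval 163 to 4862, counting error only). SD libraries stood at 1259, 2084 and 653 RPKM and SCNf x SDm libraries at 1029 and 2236 RPKM, so every library with SD ancestry was far above both SCN libraries. The limma adjusted p was 0.138 without SCN replicate 2, and it ranged from 0.00186 to 0.138 over the 24 alternatives tried, of which 20 kept the call. Without SDf x SCNm replicate 1 the limma adjusted p was 0.0623.

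Contig3677cap, the other called contig, stood at 13.2 and 5.01 RPKM in SCN and at 211 and 213 RPKM in SDf x SCNm. The hybrid libraries nearly coincided, and both were above both SCN libraries, which held 4 and 0 reads. Its fitted difference was 4.53 (SE 0.53, limma adjusted p = 0.0363), and the ratio of depth-scaled reads was 43.8 (exact 95% interval 17.0 to 161). SD libraries stood at 891, 363 and 775 RPKM and SCNf x SDm at 181 and 212 RPKM, so hybrids of both crosses lay between the parental populations. Only 11 of the 24 alternatives kept this call, with a limma adjusted p from 0.0100 to 0.520, and it was 0.256 without SCN replicate 2. It also missed the threshold without either SDf x SCNm library (0.345 and 0.520), without SD replicate 1 (0.0676) or 3 (0.116), and without SCNf x SDm replicate 1 (0.108) or 2 (0.109).

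No feature with an informative name passed the threshold, and the 5 with the smallest p in each direction are given as values. Higher in the hybrids was first a chymotrypsin-like protein (Contig1226cap), of a family of gut serine proteases that cut dietary protein. It stood at 6.54 and 13.96 RPKM in SCN and at 83.8 and 100.5 RPKM in SDf x SCNm. All hybrid values were above all SCN values, and SD libraries were at 155, 330.1 and 94.7 RPKM (log2 3.13, SE 0.58, limma adjusted p = 0.205). An SH3 domain-binding protein 5-like contig (Contig5527), named for a partner of a domain that binds proline-rich stretches, stood at 30.3 and 7.53 RPKM in SCN and at 145 and 103 RPKM in SDf x SCNm. The SCN libraries differed about as much from each other as SCN replicate 1 did from the hybrids (limma adjusted p = 0.242).

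A contig named only c-type partial (Contig9938) stood at 19.0 and 9.35 RPKM in SCN and at 68.5 and 62.1 RPKM in SDf x SCNm, above all SD libraries too (limma adjusted p = 0.253). Carbohydrate sulfotransferase 11-like (Contig27587), of a family that adds sulfate to sugar chains such as chondroitin in vertebrates, stood at 3.74 and 1.88 RPKM in SCN and at 13.3 and 15.1 RPKM in SDf x SCNm. SD libraries were at 5.82, 6.96 and 7.61 RPKM, so the hybrids lay above both parental populations, although the SCN values rest on 2 and 0 reads (limma adjusted p = 0.254). Its ratio of depth-scaled reads was 13.8 (exact 95% interval 3.73 to 116, counting error only). A gastrula zinc finger protein (Contig7208), of a family of DNA-binding proteins, stood at 32.5 and 15.6 RPKM in SCN and at 88.5 and 103 RPKM in SDf x SCNm (limma adjusted p = 0.296). For all 5, the groups did not overlap. Without SCN replicate 1 each of the 5 passed the threshold, with limma adjusted p-values from 0.0100 to 0.0311, and this was the only one of the 24 alternatives in which any of them did. Over those alternatives their limma adjusted p-values ran up to 0.976.

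Lower in the hybrids was first troponin I (Contig1745cap), the inhibitory subunit of the calcium switch of muscle thin filaments. It stood at 587 and 637 RPKM in SCN and at 281 and 124 RPKM in SDf x SCNm. The SCN libraries matched closely here, and the hybrids lay below them and below all 3 SD libraries, at 383, 393 and 636 RPKM (log2 -1.71, SE 0.47, limma adjusted p = 0.430). LYR motif-containing protein 5 (Contig23181), of a family of small proteins that help to assemble mitochondrial enzymes, stood at 81.8 and 89.6 RPKM in SCN and at 39.1 and 22.9 RPKM in SDf x SCNm (limma adjusted p = 0.441). A probable hydroxyacid-oxoacid mitochondrial-like contig (Contig5271), named for an enzyme that passes hydrogen between small organic acids, stood at 74.9 and 118 RPKM in SCN and at 43.9 and 34.9 RPKM in SDf x SCNm. SD libraries lay near the hybrids, at 44.0, 42.2 and 56.7 RPKM (limma adjusted p = 0.462).

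Ubiquitin (Contig1785), the protein tag that marks others for the proteasome, stood at 902 and 641 RPKM in SCN and at 341 and 283 RPKM in SDf x SCNm. SD libraries were at 48.0, 44.9 and 74.8 RPKM, so the hybrids took a place between both parents with no overlap on either side. The difference was -1.29 against SCN (SE 0.39, limma adjusted p = 0.463) and 2.49 against SD (limma adjusted p = 0.0457). A fumarylacetoacetate hydrolase domain-containing protein 2-like contig (Contig1538), named for an enzyme family of which 1 member ends tyrosine breakdown, stood at 92.5 and 153 RPKM in SCN and at 22.5 and 25.2 RPKM in SDf x SCNm. SD libraries spanned 11.8 to 94.6 RPKM, on both sides of the hybrids (limma adjusted p = 0.486). Of these 5 lower features, only Contig5271 passed in any alternative, without SCN replicate 1 (limma adjusted p = 0.0235, range over alternatives 0.0235 to 0.999).

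**Figure D2:**
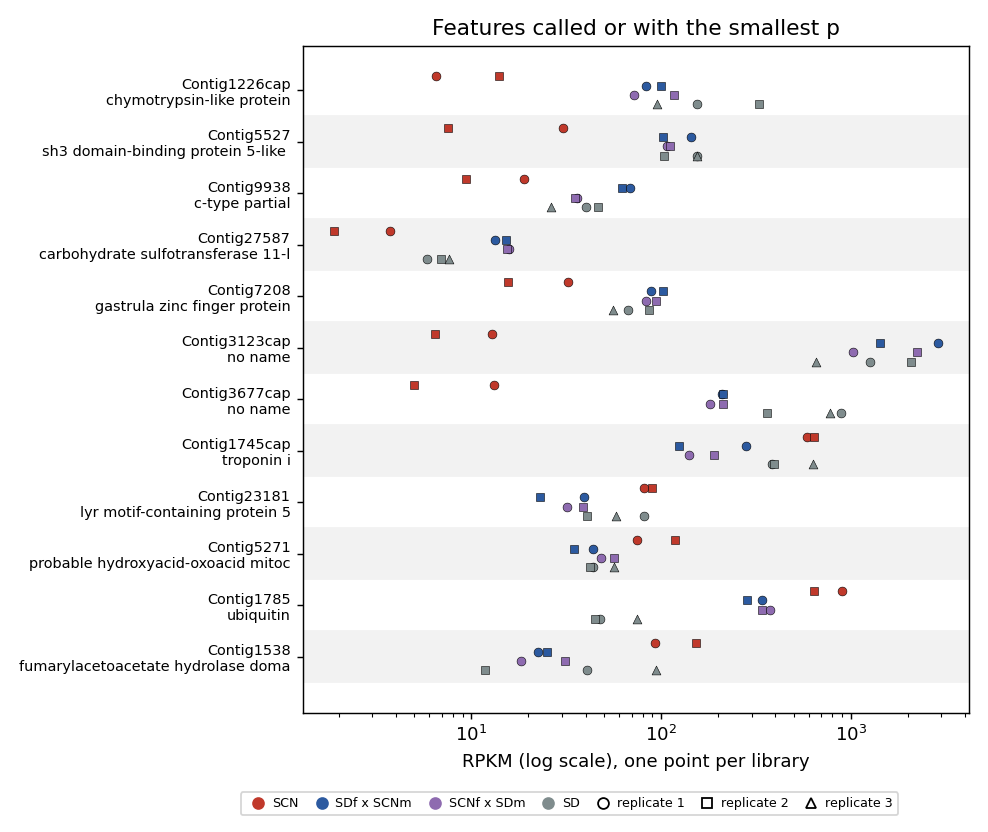
RPKM on a log axis of the 2 called contigs and of the 5 named features with the smallest p in each direction. Each point is a library, coloured by group and shaped by replicate. Blue points (SDf x SCNm) lie to the right of red points (SCN) in the upper 7 features and to the left in the lower 5, and the gap is widest for Contig3123cap, at 1427 and 2894 RPKM against 6.45 and 12.8 RPKM.

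The next named features, those whose smaller difference from the SCN libraries was largest, were chosen after their values had been seen. Among those higher in the hybrids, Contig5704, a cytochrome P450 of the oxidase family that handles toxins and steroids, stood at 6.98 and 9.16 RPKM in SCN and at 57.5 and 61.5 RPKM in SDf x SCNm. Nanos homolog 2 (Contig4701), of a family that represses translation in germ cells of other animals, stood at 15.02 and 14.6 RPKM in SCN and at 70.4 and 83.8 RPKM in SDf x SCNm. For both, the libraries within SCN and within SDf x SCNm lay close together. SD libraries were widely spread, at 462, 46.9 and 351 RPKM for the P450 and at 80.3, 319 and 84.3 RPKM for nanos, with SD replicate 2 below both hybrids for the P450. Ribonuclease H2 subunit B-like (Contig19181), part of an enzyme that removes RNA from DNA strands, stood at 15.7 and 17.2 RPKM in SCN and at 91.5 and 67.6 RPKM in SDf x SCNm. A beta-ig-h3 fasciclin contig (Contig5554), of a family of extracellular adhesion proteins, stood at 321 and 546 RPKM in SCN and at 1586 and 3122 RPKM in SDf x SCNm. A vesicle coat complex subunit (Contig25834), of the coats that shape transport vesicles, stood at 20.4 and 19.8 RPKM in SCN and at 66.6 and 145 RPKM in SDf x SCNm. In these 3 the hybrids also lay above every SD library, the highest of which were at 59.1, 1085 and 49.6 RPKM. SCN reads were few for Contig19181 (5 and 3) and Contig25834 (11 and 5). The limma adjusted p-values of the 5 features ran from 0.337 to 0.464.

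Among those lower in the hybrids, alpha-amylase (Contig3369), the starch-digesting enzyme of the gut, stood at 1420 and 1634 RPKM in SCN and at 568 and 466 RPKM in SDf x SCNm. A duplex-specific nuclease (Contig14271), of a crustacean family that cuts double-stranded DNA, stood at 121 and 94.0 RPKM in SCN and at 29.8 and 23.8 RPKM in SDf x SCNm. A sodium- and chloride-dependent betaine transporter (Contig92473), of a family that brings the osmolyte betaine into cells, stood at 12.8 and 14.01 RPKM in SCN and at 3.98 and 3.87 RPKM in SDf x SCNm. In all 3 the SCN libraries lay close together and above both hybrids, while SD replicate 2 was below the lower hybrid library (326, 10.98 and 3.77 RPKM) and SD replicates 1 and 3 were above both. Contig92473 held only 20 and 10 reads in SCN and 4 and 12 in SDf x SCNm. Its hybrid values are mostly the added constant, which was 5.24 and 15.7 reads in those libraries. A glycine receptor alpha-2 chain (Contig13890), a subunit of an inhibitory ion channel, stood at 40.8 and 31.2 RPKM in SCN and at 4.65 and 18.4 RPKM in SDf x SCNm, with a wide gap between the hybrid libraries. The lower hybrid value rests on 6 reads. The limma adjusted p-values of these 4 ran from 0.486 to 0.517.

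Gene lists matched on the deposited protein names held 0 members past the threshold in any of the 27 lists. They are described by medians of the difference from each SCN library, less the median of all features (0.02 and 0.59), and by counts of members whose groups did not overlap. Over all features, both hybrid libraries were above both SCN libraries in 3430 (24.9%) and below both in 1270 (9.23%). Fewer cells of a type and less RNA per cell cannot be told apart in pools of whole animals.

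The 13 genes of mitochondrial DNA, which in SDf x SCNm are of the SD type, did not share a direction. Both hybrid libraries were below both SCN libraries for 6 genes and above both for 1, against the 9.23% and 24.9% of all features. Cytochrome b (cytb), the catalytic core of complex III and its only subunit encoded there, stood at 7598 and 17171 RPKM in SCN and at 3432 and 2694 RPKM in SDf x SCNm. The hybrids were lower than each SCN library by more than a factor of 2, although the SCN libraries were more than a factor of 2 apart themselves. The fitted difference was -1.91 (SE 0.71, limma adjusted p = 0.496, range over alternatives 0.0600 to 0.999). All 5 libraries with SD mitochondria (1604 to 6077 RPKM) lay below all 4 with SCN mitochondria (6550 to 17171 RPKM), and cytb was the only 1 of the 13 genes for which such a split was seen in either direction. This split takes SCNf x SDm by its titles, whereas its source labels give the cross the other way round. The reference is not stated, so a difference in level and one in read placement between mitochondrial types cannot be told apart. The hybrids of both crosses differed by -1.33 in log2 terms for cytb (limma unadjusted p = 0.0907), which did not pass the adjustment.

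For cox1, the catalytic subunit of complex IV, SCN stood at 23863 and 42078 RPKM and SDf x SCNm at 9324 and 13108 RPKM. SDf x SCNm differed from SCN by -1.52 on the log2 scale (SE 0.75, limma adjusted p = 0.559), and by -0.70, less than a factor of 2, under quantile normalization. The reciprocal hybrids, which by their titles carry SCN mitochondria, stood at 9973 and 11729 RPKM, within the range of SDf x SCNm. The complex I subunit gene nad3 stood at 3113 and 3193 RPKM in SCN and at 1691 and 1073 RPKM in SDf x SCNm. On the deposited scale, cytb, cox1 and nad3 were past the fold lower against both SCN libraries. Below both by less were cox2 (7522 and 5279 RPKM in SDf x SCNm against 9064 and 17152 in SCN), nad2 (4254 and 3987 against 6035 and 8128) and nd4L (3519 and 3347 against 4199 and 4595). The exception was nad1, another complex I subunit gene, at 5324 and 5346 RPKM in SDf x SCNm against 2843 and 3596 in SCN. That was above every other library of the series, the highest of which was SD replicate 3 at 4933 RPKM. The difference of nad1 from SCN was 0.74, and 0.41 under median-of-ratios scaling.

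The other 6 mitochondrial genes overlapped between the groups. Those were cox3 (fitted log2 difference 0.17), nad4 (-0.0027), nad5 (-0.16), nad6 (0.27), ATP6 (-0.20) and ATP8 (-0.10). None of these has a settled direction. ATP6 turned to 0.67 under quantile normalization, and cox3 and nad6 turned to -0.15 and -0.055 under median-of-ratios scaling. With 1 library left out, the sign also changed for ATP6, ATP8, cox3, nad4 and nad5, ATP8 moving between -1.37 and 1.17. ATP8, a small subunit of ATP synthase, stood at 949 and 5534 RPKM in SDf x SCNm and at 1030 and 5832 RPKM in SCN, so that replicates of a group differed far more than the groups did. Mitochondrial genes together took 7.24% and 9.81% of summed RPKM in SCN and 4.74% and 6.04% in SDf x SCNm. None of the 13 genes passed the threshold in any alternative.

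**Figure D3:**
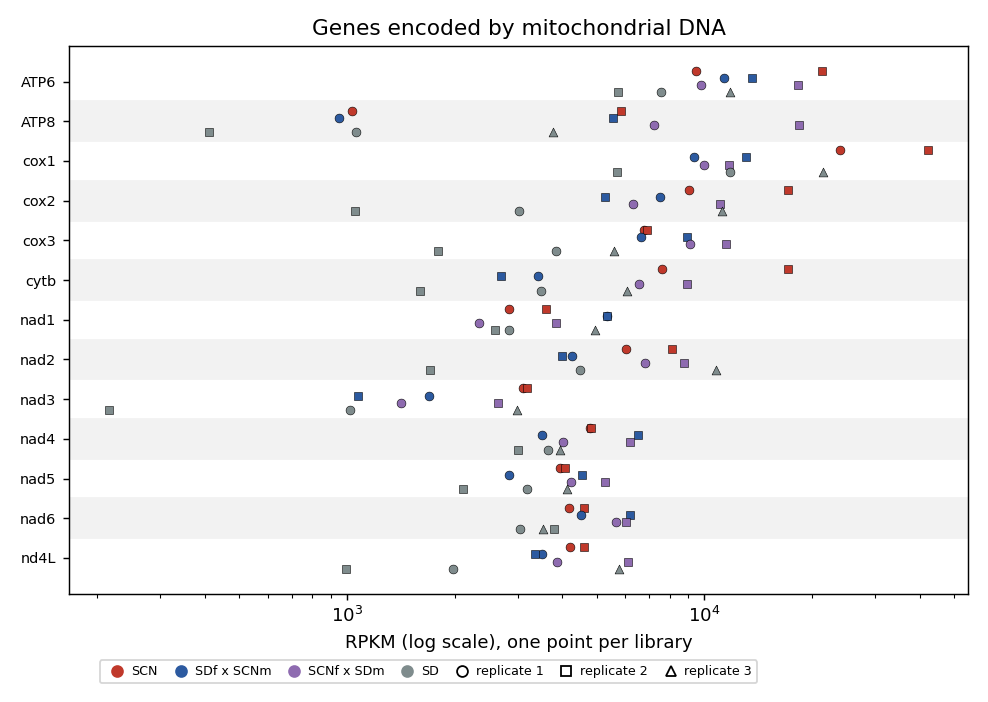
RPKM on a log axis of the 13 genes encoded by mitochondrial DNA. Each point is a library, coloured by group and shaped by replicate. For cytb all blue (SDf x SCNm) and grey (SD) points lie left of all red (SCN) and purple (SCNf x SDm) points, for cox1 the red points at 23863 and 42078 RPKM are the rightmost, and for nad1 the blue points are the rightmost.

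Nuclear subunits of the respiratory complexes were read against each SCN library. Relative to all features, the median of the 20 complex I features was 0.40 against SCN replicate 1 and -0.62 against replicate 2. For the 6 complex III features it was 0.56 and -1.25, and for the 12 complex IV features 0.71 and -0.88. All 3 lists changed sign with the SCN library. Some single subunits kept the same side of both. Cytochrome c oxidase subunit 6C (Contig470), a small accessory subunit of complex IV, stood at 281 and 495 RPKM in SCN and at 1664 and 1620 RPKM in SDf x SCNm, above all SD libraries (453 to 654 RPKM). Subunit 4 (Contig3271), a regulatory subunit of complex IV, was lower in the hybrids, at 804 and 731 RPKM in SCN and 330.3 and 377 RPKM in SDf x SCNm, below all SD libraries (585 to 795 RPKM). Their log2 differences were 2.13 (SE 0.47, limma adjusted p = 0.337) and -1.12 (SE 0.37, limma adjusted p = 0.486).

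In complex I, the accessory beta subcomplex subunit 4 (Contig760cap_1) stood at 99.3 and 172 RPKM in SCN and at 533 and 330.2 RPKM in SDf x SCNm. Beta subcomplex subunit 7 (Contig12185) stood at 133 and 157 RPKM in SCN and at 383 and 284 RPKM in SDf x SCNm. Subunit 9 of complex III (Contig6768), a small membrane subunit, stood at 251 and 345 RPKM in SCN and at 777 and 662 RPKM in SDf x SCNm. In these 3 the hybrids lay above all SCN and all SD libraries, the latter reaching 174, 164 and 341 RPKM. No SD or SCN library shared a run with a hybrid library. SCNf x SDm libraries also lay above all SCN and SD libraries in subunit 6C and in these 3, their lower values being 1551, 327, 238 and 552 RPKM. For the complex IV contig Contig3271 they lay below all SCN and SD libraries, at 397 and 429 RPKM. Complexes II and V had only 2 and 3 matched features, none past the fold against both SCN libraries. Of 24 features of mitochondrial import and carriers, 4 were above both SCN libraries (16.7%, against 24.9% of all features) and 4 below both (16.7%, against 9.23%).

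TFAM, the factor that packages mitochondrial DNA and helps to start its transcription, stood at 43.7 and 25.6 RPKM in SCN and at 74.0 and 84.6 RPKM in SDf x SCNm. Neither hybrid value overlapped SCN or SD (29.0 to 54.1 RPKM), with a log2 difference of 1.22 (SE 0.43, limma adjusted p = 0.496). Of 72 mitochondrial ribosomal proteins, 29 were above both SCN libraries (40.3%, against 24.9% of all features) and 1 below both. None was past the fold against both. Their median, relative to all features, was 0.57 against SCN replicate 1 and -0.57 against replicate 2. Without that reference the values were 0.60 and 0.027. The list's lower place against replicate 2 thus exists only relative to the other features. The member with the smallest p was mRpL20 (Contig68930), a protein of the large subunit, at 58.3 and 34.3 RPKM in SCN and 115 and 95.6 RPKM in SDf x SCNm.

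Cytosolic ribosomal proteins, the protein part of the ribosomes that translate nuclear messages, numbered 69. Of these, 29 were above both SCN libraries (42.0%, against 24.9% of all features) and 0 below both (against 9.23%). Past the fold higher against both were 8 of the 69, against 3.23% of all features. Relative to all features their median was 0.73 against replicate 1 and -0.57 against replicate 2. Without that reference the values were 0.75 and 0.026, so this list too was lower against replicate 2 only relative to the other features. RpL37a (Contig61723) stood at 859.6 and 1274 RPKM in SCN and at 5246 and 3535 RPKM in SDf x SCNm. RpS21 (Contig62709) stood at 994 and 1572 RPKM in SCN and at 4812 and 4605 RPKM in SDf x SCNm. For both, and for RpL27a (Contig2332) at 1641 and 1713 against 5573 and 4327 RPKM, SD libraries lay at SCN levels, none above 1990 RPKM. SCNf x SDm libraries were higher too, at 2568 and 4958 (RpL37a), 3358 and 8427 (RpS21), and 3338 and 6618 RPKM (RpL27a). The SDf x SCNm libraries differed in the list's median level, at 11.28 and 10.64 log2 units, and SCN replicate 2, at 10.91, lay between them.

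Translation factors numbered 45, of which 16 were above both SCN libraries (35.6%) and 5 below both (11.1%), and 0 were past the fold against both. Heat shock proteins and chaperones, which fold proteins and protect them under stress, numbered 62, with 11 above both (17.7%) and 5 below both (8.06%), close to or under the shares of all features. Contig993, the heat shock factor, is the switch of that response and stood at 70.6 and 67.3 RPKM in SCN and at 134 and 151 RPKM in SDf x SCNm. With SD at 233, 327 and 272 RPKM, the hybrids lay between the parental populations with no overlap (log2 1.03 against SCN, SE 0.36, limma adjusted p = 0.488). Of 168 proteasome and ubiquitin features, 34 were above both SCN libraries (20.2%) and 10 below both (5.95%), and the ubiquitin contig described above was the only 1 past the fold against both.

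Glycolysis and the TCA cycle are the central pathways that break down sugar. Of 45 features, 14 were below both SCN libraries (31.1%, against 9.23% of all features) and 1 above both (2.22%, against 24.9%). Relative to all features the median was -0.27 against SCN replicate 1 and -1.15 against replicate 2, and the fitted median was -0.54 under quantile normalization and -0.78 under median-of-ratios scaling. A 6-phosphofructokinase-like contig (Contig9688), which commits sugar to glycolysis, stood at 170 and 208 RPKM in SCN and at 89.9 and 75.1 RPKM in SDf x SCNm. A hexokinase type 2-like contig (Contig126534), of the enzyme that traps glucose in the cell, stood at 9.70 and 7.87 RPKM in SCN and at 2.70 and 4.17 RPKM in SDf x SCNm. It held 14 and 5 reads in SCN and 1 and 14 in SDf x SCNm, so its lowest value is mostly the added constant. These 2 were the members past the fold against both, with limma adjusted p-values of 0.496 for each. The 1 member above both SCN libraries was isocitrate dehydrogenase (Contig3350), of the TCA cycle, at 123 and 88.4 RPKM in SCN and 224 and 209.6 RPKM in SDf x SCNm. SD libraries spanned the hybrids in the list's median level, from 5.99 to 6.89 log2 units against 6.44 and 6.21.

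Antioxidant and glutathione features numbered 54, with 22 above both SCN libraries (40.7%, against 24.9% of all features) and 3 below both (5.56%, against 9.23%). Glutathione S-transferase (Contig1767cap), which couples glutathione to reactive compounds, stood at 101 and 104 RPKM in SCN and at 314 and 444 RPKM in SDf x SCNm, above all SD libraries (33.2 to 112 RPKM). SCNf x SDm libraries were above these as well, at 353 and 505 RPKM. A different glutathione S-transferase (Contig10970) stood at 198 and 27.7 RPKM in SCN and at 415 and 587 RPKM in SDf x SCNm, the SCN libraries being wide apart. Cytochrome P450s numbered 39, with 11 above both (28.2%) and 2 below both (5.13%), and Contig5704 was the only 1 past the fold against both. Lipid metabolism held 114 features, 23 above both (20.2%) and 15 below both (13.2%). Monoglyceride lipase (Contig19191), which splits monoglycerides, stood at 14.3 and 3.24 RPKM in SCN and at 30.7 and 36.7 RPKM in SDf x SCNm. A pancreatic triacylglycerol lipase-like contig (Contig3858) stood at 7.92 and 11.8 RPKM in SCN and at 29.8 and 27.4 RPKM in SDf x SCNm, the SCN values resting on 1 and 2 reads.

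Cuticle and chitin features, which build the exoskeleton and the lining of the gut and are made in step with the moult, numbered 90. Of these, 42 were above both SCN libraries (46.7%, against 24.9% of all features) and 2 below both (2.22%, against 9.23%). Past the fold against both were 18 of the 90 higher and 0 lower, against 3.23% and 0.611% of all features. Relative to all features the median was 0.31 against replicate 1 and 1.46 against replicate 2, so its size rested on the SCN library. The fitted median was 0.68 under quantile normalization and 0.76 under median-of-ratios scaling. The list's median level was 5.97 and 4.03 log2 units in SCN replicates 1 and 2 and 6.07 and 6.0 in the hybrids, with SD at 5.04, 4.62 and 4.21 and SCNf x SDm at 6.26 and 6.33.

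Single cuticle genes stood apart from both SCN libraries and from SD in hybrids of both crosses. A cuticle protein (Contig220) stood at 673 and 619 RPKM in SCN and at 2150 and 3436 RPKM in SDf x SCNm, with SD at 487, 639 and 70.9 RPKM. Larval cuticle protein LCP-17 (Contig977cap) stood at 90.9 and 45.6 RPKM in SCN and at 339 and 328 RPKM in SDf x SCNm, with SD at 36.1, 45.6 and 11.6 RPKM. It was called higher than SD (limma adjusted p = 0.0492) but not than SCN (limma adjusted p = 0.430). A further cuticle protein (Contig31846) stood at 30.3 and 10.9 RPKM in SCN and at 149 and 148 RPKM in SDf x SCNm. The peritrophin contig (Contig3246cap), named for proteins of the sheath around food in the insect gut, stood at 7.37 and 3.58 RPKM in SCN and at 31.6 and 24.7 RPKM in SDf x SCNm. SCNf x SDm libraries lay above all SCN and SD libraries too, at 4687 and 4078 RPKM (Contig220) and 217 and 296 RPKM (Contig977cap). For Contig31846 they stood at 160 and 244 RPKM, and for Contig3246cap at 13.9 and 23.2 RPKM. SCN reads were few for Contig31846 (11 and 1) and Contig3246cap (7 and 1). Reads shared by near-identical cuticle genes may have been split between them, since the sources used here do not say how they were counted.

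Digestive peptidases numbered 101, with 26 above both SCN libraries (25.7%) and 9 below both (8.91%), shares near those of all features. Beside the chymotrypsin-like contig, a trypsin (Contig39803) stood at 9.90 and 0.907 RPKM in SCN and at 83.8 and 19.1 RPKM in SDf x SCNm, so both groups were widely spread, with 0 reads in SCN replicate 2. Pro-cathepsin H (Contig1274cap), the precursor of a lysosomal protease, stood at 75.6 and 50.7 RPKM in SCN and at 257 and 145 RPKM in SDf x SCNm. Immune recognition features numbered 45, with 10 above both (22.2%) and 4 below both (8.89%). Contig104cap, a C-type lectin of the sugar-binding family that recognises microbes, stood at 32.8 and 15.6 RPKM in SCN and at 118 and 156 RPKM in SDf x SCNm. Another C-type lectin-like contig (Contig11276) stood at 91.1 and 46.3 RPKM in SCN and at 310 and 223 RPKM in SDf x SCNm, with SCNf x SDm higher still at 577 and 653 RPKM.

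**Figure D4:**
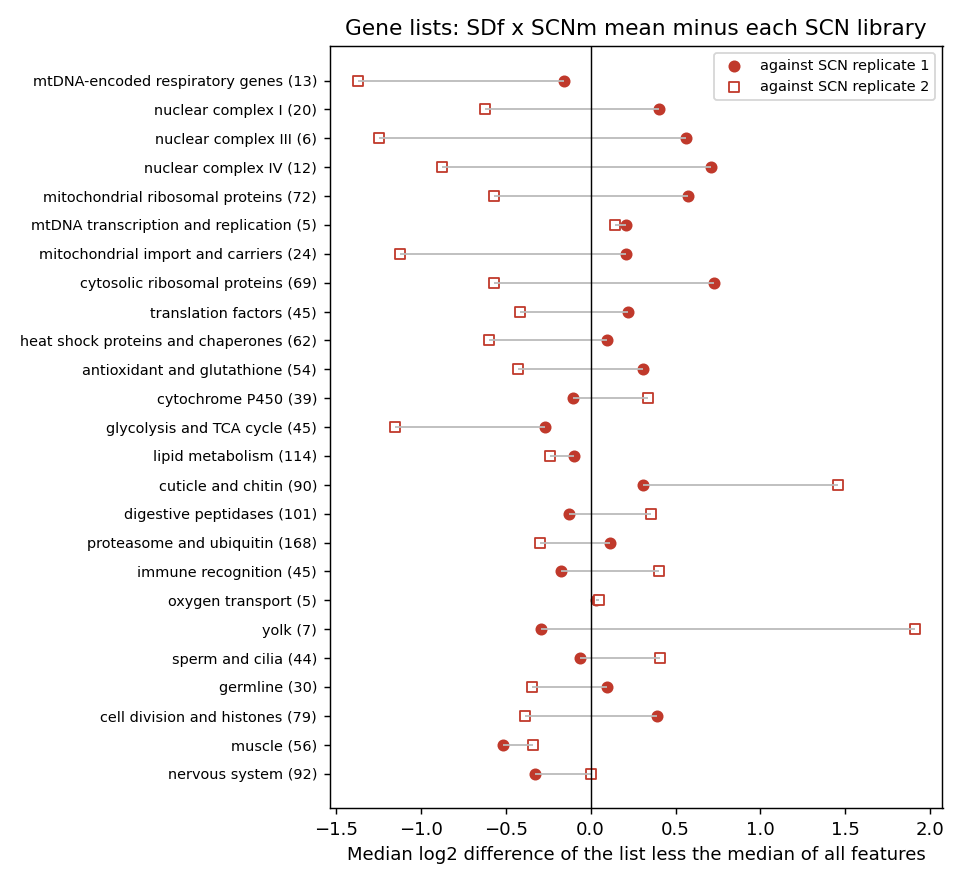
Median difference of the SDf x SCNm mean from SCN replicate 1 (filled circles) and from SCN replicate 2 (open squares) for gene lists with 5 or more members (number in brackets), less the median of all features, in log2(RPKM + 1) units. Cuticle and chitin lies right of 0 against both SCN libraries, at 0.31 and 1.46, glycolysis and TCA cycle lies left of 0 against both, at -0.27 and -1.15, and many other lists change side with the SCN library.

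Markers of stage, sex and tissue were read to see whether the pools differed in composition. Yolk features, made in mature females, numbered 7, and their median level was 12.36 log2 units in SCN replicate 1 and 8.68 in replicate 2, against 11.86 and 12.33 in the hybrids. Vitellogenin (Contig1764cap), the yolk precursor, stood at 8156 and 1551 RPKM in SCN and at 10806 and 7147 RPKM in SDf x SCNm. SCN replicate 2 was thus the lowest library for yolk, and 0 of the 7 features had groups that did not overlap. Sperm and cilia features had a median level of 3.11 and 1.99 log2 units in SCN and 3.05 and 3.04 in the hybrids. Of these 44 features, 14 were above both SCN libraries (31.8%) and 2 below both (4.55%). Germline features (30) had 9 above both and 3 below both, and features of cell division and histones (79) had 29 and 2.

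Histone H2A (Contig2816), a core protein of the nucleosome, stood at 88.2 and 184 RPKM in SCN and at 512 and 319.7 RPKM in SDf x SCNm. A partial histone H4 contig (Contig20625) was lower in the hybrids, at 533 and 2779 RPKM in SCN and 329 and 129.6 RPKM in SDf x SCNm. SD replicate 3, which shared a run with SCN replicate 2, was the highest SD library for that contig, at 672 RPKM against 159 and 90.1. Muscle features numbered 56, of which 14 were below both SCN libraries (against 9.23% of all features) and 3 above both (5.36%). Relative to all features their median was -0.52 against replicate 1 and -0.34 against replicate 2. Without that reference the second value was 0.25, so the list's lower place against replicate 2 exists only relative to the other features. Beside troponin I, an essential light chain of myosin-2 (Contig766cap), part of the muscle motor, stood at 304 and 287 RPKM in SCN and at 181 and 81.4 RPKM in SDf x SCNm. Nervous system features (92) had 9 above both (9.78%, against 24.9% of all features) and 9 below both (9.78%, against 9.23%). The part of pool composition in the other results was not tested.

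**Figure D5:**
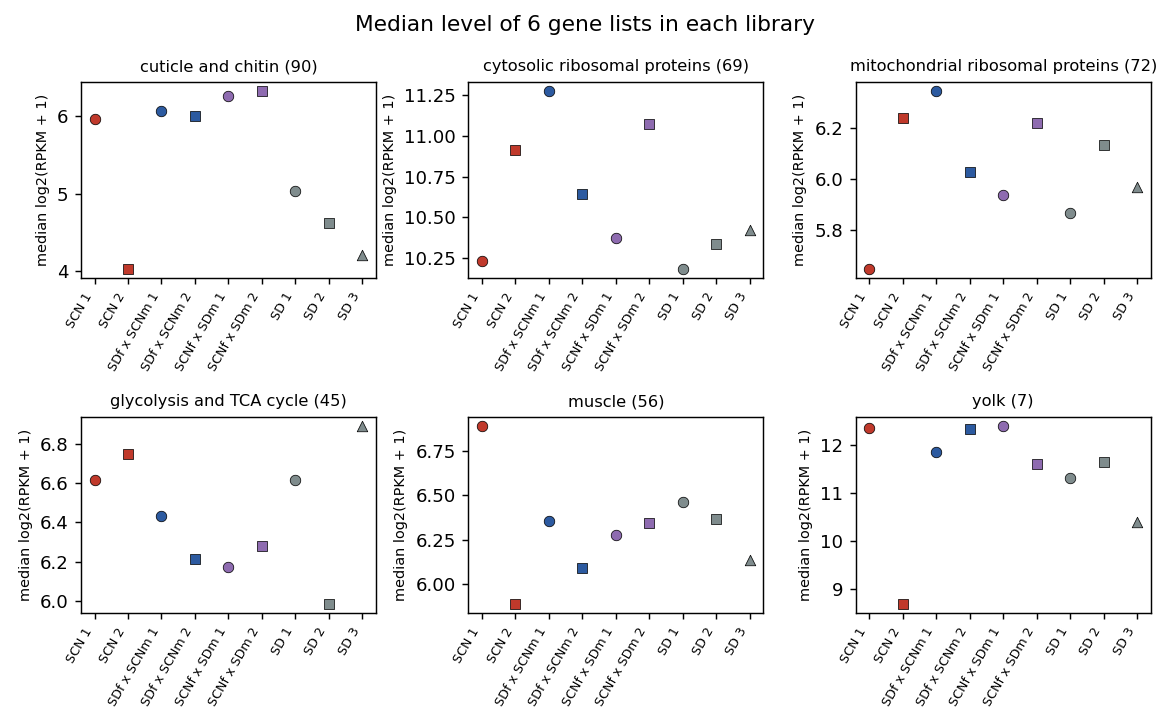
Median log2(RPKM + 1) of 6 gene lists in each of the 9 libraries, coloured by group and shaped by replicate, with the number of members in brackets. SCN replicate 2 lies far below the other libraries for yolk, at 8.68, and below both hybrids for cuticle and chitin, at 4.03, while SCN replicate 1 is lowest for mitochondrial ribosomal proteins and highest for muscle.

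Against SD, limma called 15 features higher in SDf x SCNm and 1 lower, 16 in all (0.116%). That comparison shares the hybrid libraries with the comparison against SCN. SDf x SCNm was also tested against SCNf x SDm, which asks whether both crosses differ from SCN by different amounts, since the SCN mean drops out of that difference. Limma called 0 features (0.0%), with 39 at an unadjusted p below 0.05, and voom on recovered reads called 0, with 83. Both 39 and 83 are far below a share of 0.05 of all features. The fit shares its estimate of the spread with the widely spaced SCN libraries, so 0 calls do not show that the crosses are alike. SDf x SCNm replicate 2 shared run 5 with both SCNf x SDm libraries. The titles were followed for SCNf x SDm, although its source labels give the cross the other way round.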

How the data were processed

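PolyA RNA was sequenced by the study in 9 libraries, grouped by title. The authors deposited RPKM per contig pair, per the file headers. The sources used here do not give the aligner, counting, filters or reference, and contig identifiers matched nothing in the gene table at hand, so no coordinates are given.

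Whole reads were recovered from the steps of low RPKM values for 13554 features (98.52%), with 99.99% of values within 0.05 read of a whole number. An added constant of 1.12 to 18.4 reads per library was found beside them. Reads gave depths and alternatives only.

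The test was limma 3.58.1, run in R 4.3.3. It fitted 4 group means to log2(RPKM + 1) in all 9 libraries, with the variance moderated along a trend in mean level, and Benjamini-Hochberg adjustment over 13758 features at 0.05. This scale understates changes of low features. A minimum mean RPKM of 1 removed 0 features. The fit was also run on simulated data in which all libraries had the same spread, so that run does not cover the wide gap between the SCN libraries. Alternatives changed the pseudocount, filter, scaling, moderation, block, weights and libraries.

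Named genes were the 5 informative names with the smallest p in each direction, called contigs without a name, the 13 mitochondrial genes, and the smallest p of each list. Added after values were seen were those furthest from both SCN libraries (8 per direction) and up to 3 such members per list. Members and lists were chosen with earlier results of these data known. Lists match words in names.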

Additional observations from a re-analysis of the deposited data

How the results depend on the processing

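Of 24 alternatives, 3 were added after seeing the data (crossed replicate numbers, the added constant taken off, and voom on recovered reads). The count of features higher in SDf x SCNm than in SCN was 2. It was 1 with only the 2 groups in the fit, with the constant taken off and with voom, and 0 with library weights and without both libraries of run 3. Leaving out 1 library gave 0 to 2274 higher and 0 to 385 lower, and 0 lower were called under every other alternative. Against SD, 16 features became 33 under quantile normalization, 9 without the mean-variance trend, 8 with robust moderation, 1643 with library weights, 188 without run 3, 44 with voom, and 1 to 155 with 1 library left out. Against SCNf x SDm the count was 0 under every alternative.

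The labels do not say that replicate numbers pair libraries, and deviations of same-numbered libraries correlated at r = -0.302. With the replicate block, 1 feature was higher than in SCN and 3 differed from SD. With crossed numbers the block gave 2 and 3. No sign changed among the 12 features called or nearest to it, whereas 8 of all 76 named features, 6 of them mitochondrial genes, changed sign in at least 1 alternative. In all, 77 of 1798 recomputed named values moved by over 1 SE, 16 of them without SCN replicate 1 and 16 without SCN replicate 2. Where a cause is not evident from fewer libraries, the cause was not tested. SCN replicate 2, the shallowest of the 4 libraries, limits what could be seen for low features.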
